A study of Mus musculus with 40 samples.

Results

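The comparison described here sets 10 tumors of mice treated with a bifunctional protein against 10 tumors of mice given an isotype control, out of 40 tumor libraries in the series. The 20 libraries were chosen by their labels, C0479 to C0488 for the bifunctional protein and C0449 to C0458 for the isotype control, and 10 trap control libraries (C0459 to C0468) entered the fits as a bridge. All tumors were EMT-6, a mouse mammary carcinoma cell line, grown in female Balb/C mice aged 8 to 12 weeks from cells placed in the right mammary pad. Dosing began 20 days after inoculation, at a mean volume near 400 mm3, and was intravenous on days 0, 1 and 2. Tumors were taken on day 6. The bifunctional protein (492 µg per dose) joins an anti-PD-L1 antibody to a TGF-β trap. The isotype control (400 µg) is an anti-PD-L1 antibody made inactive, and the trap control (492 µg) carries the trap on an antibody whose PD-L1 binding was lost by mutation. The comparison asks what blocking PD-L1 and TGF-β together changed in the tumor's RNA after 6 days.

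PD-L1 is a surface protein of tumor and myeloid cells that binds PD-1 on T cells and restrains them. TGF-β is a secreted cytokine. It signals through the receptors Tgfbr1 and Tgfbr2 to Smad proteins, drives matrix production by fibroblasts and holds back cytotoxic lymphocytes. The trap is a soluble receptor domain that binds the cytokine before it reaches cells. RNA of whole tumors was measured, so fewer cells of a type and less RNA per cell cannot be told apart.

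The bifunctional and isotype control libraries never shared a library set. The first set, C0449 to C0464, took in the isotype control and 6 trap control libraries. The second, C0465 to C0488, took in 4 trap control libraries and the bifunctional protein. The labels name no batch. The sets differ in what the libraries contain: 9 structural RNAs (7SL, 7SK, RNase MRP, RNase P, Y RNAs and mitochondrial ribosomal RNA) took 31.8% to 64.7% of counts in the 16 libraries of the first set and 15.1% to 20.9% in the 14 of the second. Protein-coding genes took 24.5% to 59.0% and 71.2% to 78.2%. Within the trap control alone, 7528 of 14920 genes differed between the sets by edgeR's quasi-likelihood test. Total counts ran from 13495835 to 27658263 per library. Skeletal muscle stood furthest apart in 3 libraries. The 8 tested skeletal muscle genes summed to 5658 CPM (counts scaled to library size, with TMM factors) in bifunctional C0484, 2587 CPM in bifunctional C0479 and 16030 CPM in trap control C0463. The isotype control ran from 3.98 to 392 CPM, and the trap control of the second set reached 529 CPM, above that range too. Adipocyte genes stood apart in others too, summing to 304 to 1893 CPM in bifunctional C0479, C0483, C0484 and C0485 and to 666 CPM in trap control C0467, against at most 53.8 CPM in the isotype control.

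Each gene therefore has a pooled value, bifunctional minus isotype control with the sets ignored, and a value with a library set term. The value with the term is the sum of differences measured within sets: bifunctional minus trap control in the second set (10 against 4 libraries) plus trap control minus isotype control in the first (6 against 10). These differences use separate trap control libraries. The sum stands for bifunctional minus isotype control only if the set shifts a gene equally in every treatment, which this design cannot test.

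In the pooled comparison 5107 genes of the treated tumors were above the isotype control (34.2% of 14920 tested) and 4248 were below it (28.5%), at a Benjamini-Hochberg adjusted p under 0.05 in edgeR. With the set term 43 genes were higher (0.288%) and 66 were lower (0.442%). Both fits called the same direction for 55 genes, 20 higher (0.134%) and 35 lower (0.235%), which is 0.588% of the pooled calls. Of the 9355 pooled calls, 3811 (40.7%) had the opposite sign with the set term. The median standard error of a log2 fold change was 0.137 pooled and 0.203 with the term. At an unadjusted p under 0.05 the set term fit gave 3116 genes. The split of pooled calls depends on scaling: on log2(TPM + 1) in limma 13151 genes were higher and 285 lower, and the median log2 difference of all genes was 0.81 against 0.08 in edgeR. With each TPM library centred on its median gene, 4777 were higher and 6629 lower. Pooled directions given here are those of edgeR after TMM scaling, and those that turned on the centred scale are named beside the gene or list. On log2(TPM + 1) as deposited nearly every list lay above 0, the mitochondrial messages apart.

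**Figure D1:**
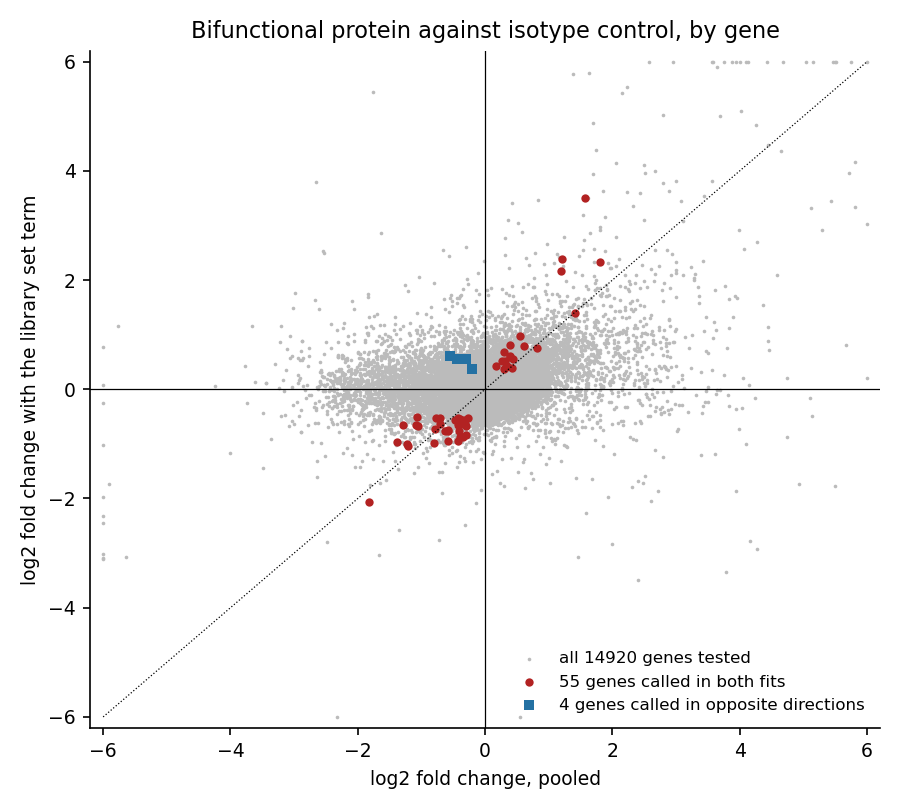
Log2 fold change of each of 14920 genes, bifunctional protein against isotype control, pooled (x axis) and with the library set term (y axis); values beyond 6 are drawn at 6, the dotted line marks equality, red points are the 55 genes called in both fits and blue squares the 4 called in opposite directions. The cloud lies flat along the x axis, and the genes called in both fits lie to the lower left or upper right of the origin, which a call in the same direction requires.

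The count of genes called with the set term rests on single libraries. It was 0 without trap control C0464, without trap control C0466 or without trap control C0467, and 711 without bifunctional C0482, and the count called in both fits ran from 0 to 310 over the same fits. The genes below are those that held in the fit of all 30 libraries, whose adjusted p with the term lay between 0.0217 and 0.0498. Over the 30 fits that left out 1 library, the 20 named ones were called with the term in 7 (Ltb4r1) to 27.

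The named rises that held are given first. Ctnnd2 (mm10 chromosome 15, 30172593 to 31029341), which encodes the junction protein δ-catenin, ran from 0.143 to 0.568 CPM in the isotype control (median 0.409) and from 0.667 to 2.72 CPM with the bifunctional protein (median 1.04). The groups did not overlap. It rose by a log2 fold change of 1.81 pooled (SE 0.30, edgeR adjusted p = 1.38e-05) and 2.32 with the set term (SE 0.511, adjusted p = 0.0347). On centred log2(TPM + 1), a scale that compresses values under 1, the difference was -0.77 pooled and -0.091 with the term.

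Bmp2 (chromosome 2, 133552159 to 133562885), a secreted ligand of the TGF-β superfamily that signals through its own receptors, was at 0.487 to 1.32 CPM in the isotype control (median 0.754) and 1.06 to 5.38 CPM with the bifunctional protein (median 1.5). Of the 10 bifunctional libraries 6 lay above the isotype range. The log2 difference was 1.21 pooled (SE 0.34, adjusted p = 0.00321) and 2.39 with the set term (SE 0.551, adjusted p = 0.0385). Trap control C0464 held 7.03 CPM of it, above every other library, and without that library the value with the term was 1.79 with an edgeR adjusted p of 0.0772. On the centred TPM scale its pooled difference was -0.62.

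Ltb4r1 (chromosome 14, 55765962 to 55768494), the high-affinity receptor for leukotriene B4 on leukocytes, was at 0.780 to 1.82 CPM in the isotype control (median 1.44) and 2.07 to 6.37 CPM with the bifunctional protein (median 3.30). All 10 bifunctional libraries lay above the isotype control. The rise was 1.41 pooled (SE 0.20, edgeR adjusted p = 1.56e-06) and 1.39 with the set term (SE 0.346, adjusted p = 0.0498). Between the trap control sets the difference was -0.02 on the log2 scale, first minus second.

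Ppp1r9b (chromosome 11, 94991035 to 95006899), the actin-binding scaffold spinophilin, had 37.0 to 55.8 CPM in the isotype control (median 50.8) and 67.1 to 103 CPM with the bifunctional protein (median 87.1). The groups were fully apart, with the trap control between them at medians of 64.3 CPM in the first set and 70.9 CPM in the second. It rose by 0.82 pooled (SE 0.08, edgeR adjusted p = 5.38e-08) and by 0.75 with the set term (SE 0.146, adjusted p = 0.0264). Hip1, an endocytic adaptor, ran from 45.8 to 62.5 CPM (median 57.3) and from 58.0 to 96.6 CPM (median 74.2), with 9 of 10 bifunctional libraries above the isotype range. It rose by 0.45 pooled and 0.56 with the term (adjusted p = 0.0424).

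The other rises named by the rule were smaller or nearer the isotype range. With the set term they were 0.98 for Pik3ip1 (an inhibitor of PI3 kinase), 0.81 for Tmem106a, 0.79 for Ddrgk1 (a part of the UFMylation machinery), 0.69 for Cln6 (a membrane protein of the endoplasmic reticulum) and 0.61 for Tfcp2 (a transcription factor). Their pooled values ran from 0.29 for Cln6 to 0.62 for Ddrgk1, and on centred TPM those of Pik3ip1 and Tfcp2 turned to -0.0023 and -0.15. Over all 20 rises, the bifunctional libraries lay wholly above the isotype control for 6 genes, and they did so for 7.47% of all genes tested. The pooled comparison had chosen these genes, so nothing is read from that count. Genes that held outside the naming rule included Lilra5, Txlna, Mbd2, Sec14l1, Wdtc1, Stk11, Cyhr1, 2210016L21Rik and ENSMUSG00000026464, with values for the term from 0.38 for Txlna to 2.17 for Lilra5.

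Of the 35 falls that held, 5 were zinc finger genes, and 4 of those lie on chromosome 17. Genes with such Zfp symbols were 14.3% of these falls and 2.32% of all genes tested (346), of which 53.2% were lower pooled and 46 lie on chromosome 17. Zfp97 (17121415 to 17146831) ran from 20.8 to 37.1 CPM in the isotype control (median 28.9) and from 8.78 to 15.5 CPM with the bifunctional protein (median 11.7). No bifunctional library reached the isotype range. It fell by 1.23 pooled (SE 0.11, edgeR adjusted p = 8.72e-09) and by 1.00 with the set term (SE 0.178, adjusted p = 0.0217). Zfp960 (17064113 to 17089628), its neighbor on the same strand, ran from 30.4 to 51.3 CPM (median 37.7) and from 10.8 to 16.9 CPM (median 15.4). It fell by 1.39 pooled and by 0.96 with the term (adjusted p = 0.0223).

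Zfp942 (21926960 to 21962464) and Zfp994 (22197265 to 22225616) fell by 0.65 and 0.66 with the set term. Zfp930, on chromosome 8, fell by 1.04 (adjusted p = 0.0264), from a range of 6.66 to 12.1 CPM in the isotype control to one of 3.18 to 5.56 CPM, with no overlap. Zinc finger genes of this kind have close copies, and the authors' counting shares reads among copies, so the value of any single one is uncertain. Most of each difference with the term came from the first set: for Zfp97 the trap control was lower than the isotype control by 0.82 (a difference of -0.82, adjusted p = 0.000945), and in the second set the bifunctional minus trap control difference was -0.18 (adjusted p = 0.494).

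The other named falls were of varied function. Tomm20 (chromosome 8, 126930667 to 126945844), a receptor of the mitochondrial import channel, had 139 to 191 CPM in the isotype control (median 168) and 95.7 to 184 CPM with the bifunctional protein (median 135). The groups overlapped, with 7 bifunctional libraries below the isotype range. It fell by 0.30 pooled (SE 0.11, adjusted p = 0.0236) and by 0.83 with the set term (SE 0.157, edgeR adjusted p = 0.0264). The trap control medians were 120 CPM in the first set and 166 CPM in the second.

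Fkbp3, a nuclear prolyl isomerase, ran from 35.8 to 55.9 CPM (median 44.9) in the isotype control and from 26.9 to 49.4 CPM (median 34.4) with the bifunctional protein. Here too the ranges overlapped, and 6 bifunctional libraries lay below the isotype range. It fell by 0.35 pooled and by 0.88 with the set term (adjusted p = 0.0223). Uchl3, a ubiquitin hydrolase, fell by 0.59 pooled and by 0.94 with the term (adjusted p = 0.0273), with 9 of 10 bifunctional libraries below the isotype range. Trnt1, which adds the CCA end to transfer RNAs, fell by 0.77 with the term, Gnpnat1, an enzyme of UDP-GlcNAc synthesis, by 0.87, and Cenpi, a centromere protein, by 0.76. On log2(TPM + 1) as deposited each of the 10 named falls lay above 0 pooled, from 0.070 for Zfp960 to 1.13 for Rps14, where the median gene lay at 0.81. On centred TPM the pooled values of Trnt1, Fkbp3, Rps14 and Tomm20 were 0.059, 0.16, 0.22 and 0.13.

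The ribosomal protein gene Rps14 ran from 377 to 689 CPM in the isotype control (median 499) and from 260 to 596 CPM with the bifunctional protein (median 399.5). Of the 10 bifunctional libraries 7 lay within the isotype range. It fell by 0.43 pooled and by 0.95 with the set term (edgeR adjusted p = 0.0458). Rpl5, from the list of 20 cytosolic ribosomal proteins, fell by 0.41 pooled and by 0.59 with the term (adjusted p = 0.0264), and it was the only member of any of the 38 gene lists that held. Over all 35 falls, 12 had every bifunctional library below the isotype control, as did 11.0% of all genes tested, and nothing is read from that count either. Ribosomal proteins have many processed pseudogenes, so their counts are uncertain, and 3 pseudogenes stood among the 35 falls themselves.

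**Figure D2:**
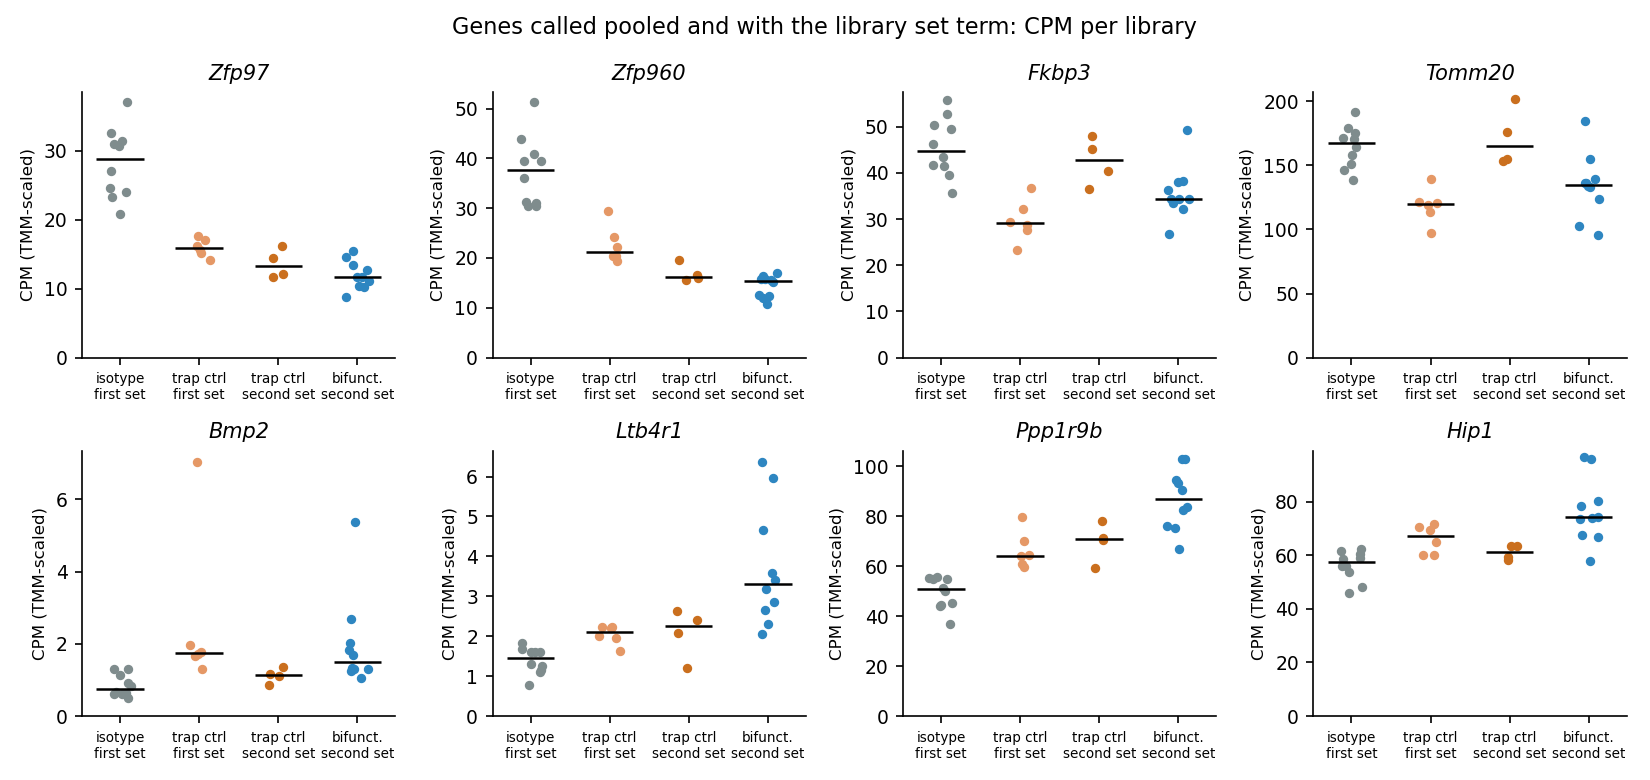
CPM per library (TMM-scaled, y axis from 0) of 4 genes that fell and 4 that rose in both fits, in the isotype control (10 libraries, first set), the trap control of the first set (6) and of the second (4), and the bifunctional protein (10, second set); bars are medians. Zfp97 and Ppp1r9b separate the outer groups fully, while Tomm20 and Fkbp3 differ between the trap control sets.

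The second set by itself, bifunctional against trap control, had no call (0.0% of genes, smallest edgeR adjusted p = 0.154), with 2272 genes at an unadjusted p under 0.05. The first set by itself, trap control against isotype control, had 1388 calls (9.3%), 600 higher and 788 lower. Of the 55 genes that held, 48 were called in the first set too, in the same direction, and for 46 the difference in the first set was the larger one. Both differences had the same sign in 52 of the 55. The value with the term is the sum of these differences, and the genes were chosen by it, so nothing is read from these counts.

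**Figure D3:**
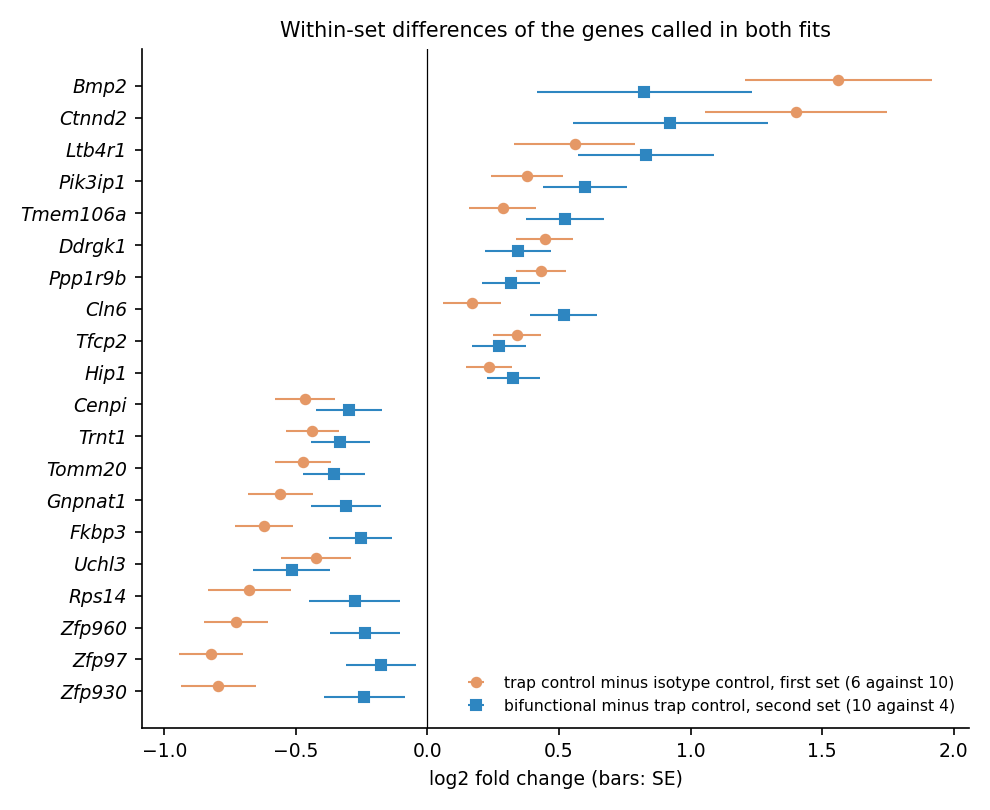
Log2 fold changes (x axis, bars are 1 SE) within each set for the 20 named genes that held: trap control minus isotype control in the first set (circles) and bifunctional minus trap control in the second (squares). Every gene has both differences on the same side of 0; for the zinc finger genes the first is far the larger, and the second is the larger for Cln6, Ltb4r1, Pik3ip1, Tmem106a, Hip1 and Uchl3.

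For 4 genes the fits made opposite calls, lower pooled and higher with the set term. Brd3, a chromatin reader of acetylated histones, ran from 36.0 to 43.0 CPM in the isotype control (median 38.8) and from 24.3 to 36.6 CPM with the bifunctional protein (median 32.4). Only 1 bifunctional library reached the isotype range. The trap control, though, had medians of 45.9 CPM in the first set and 25.9 CPM in the second. The log2 difference of Brd3 was -0.30 pooled (adjusted p = 0.037) and 0.55 with the set term (edgeR adjusted p = 0.0264).

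Prkd2, a kinase downstream of diacylglycerol, went from -0.55 pooled to 0.60 with the term, and Cic, a repressor of growth factor target genes, from -0.44 to 0.56. The fourth was Numa1, at -0.21 and 0.38. No gene was higher pooled and lower with the term.

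In the pooled comparison all 11 tested cytotoxic effectors and 11 of 14 T cell genes rose, with median log2 fold changes of 1.79 and 1.36 against 0.08 over all genes. None of either list passed with the set term (smallest edgeR adjusted p = 0.0603 and 0.121), the medians were 0.79 and 0.71 against 0.06, and 9 of 11 and 12 of 14 members were above 0. Of all 14920 genes tested 8418 were above 0 with the term. Members of a list are measured in the same libraries, so here and in the lists below such counts are not separate results. Each list's pooled counts stand against 34.2% of all genes higher and 28.5% lower. Without the bifunctional libraries C0479 and C0484 the pooled counts were the same, 11 and 11. On centred log2(TPM + 1), which compresses values under 1, 6 cytotoxic effectors rose and 12 T cell genes fell. Over all genes 4777 rose and 6629 fell on that scale. The 14 T cell genes together had a median of 6.43 CPM in the isotype control, so their falls there say little. Cd3e and the T cell receptor constant gene Trac were too low to be tested.

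Gzmb, the granule protease granzyme B, ran from 0.112 to 1.35 CPM in the isotype control (median 0.811) and from 2.52 to 6.99 CPM with the bifunctional protein (median 3.85). The groups were fully apart. The trap control had a median of 1.75 CPM in the first set and 3.31 CPM in the second. Gzmb rose by 2.35 pooled (SE 0.31, edgeR adjusted p = 9.76e-07). With the set term the difference was 1.18 (SE 0.455, adjusted p = 0.139), of which 1.04 came from the first set and 0.14 from the second.

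Icos, a costimulatory receptor of activated T cells, ran from 0 to 0.446 CPM in the isotype control (median 0.233) and from 0.763 to 1.57 CPM with the bifunctional protein (median 0.922), again with no overlap. It rose by 2.19 pooled, and with the term the difference was 1.45 (SE 0.528, adjusted p = 0.121). Cd8a, the coreceptor of cytotoxic T cells, ran from 0.0547 to 1.32 CPM in the isotype control (median 0.356). With the bifunctional protein it lay within that range, at 0.385 to 1.17 CPM (median 0.609). Its difference was 0.75 pooled (adjusted p = 0.12), with a 95% interval from -0.08 to 1.58. Cd4 rose by 2.45 pooled, and its difference with the term was 0.97 (adjusted p = 0.406).

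Natural killer cell genes rose for 6 of 7 members pooled, and their median was 1.40 pooled and 0.18 with the term. On centred TPM 6 natural killer, 6 regulatory T cell, 7 inhibitory receptor and 8 dendritic cell genes fell pooled, as did 6629 of all 14920 genes. Klrg1, a receptor of mature killer and effector T cells, ran from 0 to 0.244 CPM in the isotype control (median 0.0519) and from 0.296 to 1.5 CPM with the bifunctional protein (median 0.686). It rose by 3.42 pooled, and the difference with the term was 2.35 (SE 0.742, adjusted p = 0.0857). Of 7 regulatory T cell genes 3 rose and 1 fell pooled, where 34.2% of all genes rose and 28.5% fell. Their median was 0.64 pooled and 0.79 with the term. Tnfrsf18, the costimulatory receptor GITR, had a difference of 1.53 pooled and 1.52 with the term (adjusted p = 0.152). The pooled values of Icos, Klrg1, Tnfrsf18 and Pdcd1 on centred TPM were -0.70, -0.55, -0.36 and -0.73, where levels under 1 are compressed.

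Among inhibitory receptors and ligands 5 of 10 rose and 1 fell pooled, where 34.2% of all genes rose and 28.5% fell. Pdcd1, which encodes PD-1, ran from 0.0709 to 0.380 CPM in the isotype control and from 0.296 to 0.840 CPM with the bifunctional protein. It rose by 1.29 pooled (edgeR adjusted p = 0.0038), and with the set term the difference was 0.92 (adjusted p = 0.429). Without trap control C0464 the value with the term was -0.0042. Cd274, which encodes PD-L1, ran from 6.02 to 13.4 CPM (median 9.49) and from 6.33 to 28.0 CPM (median 10.4). The groups overlapped, and the difference was 0.34 pooled (adjusted p = 0.247) and 0.33 with the term (95% interval -0.56 to 1.23). Without bifunctional C0479 these values were 0.12 and 0.11, and without single trap control libraries of the second set the value with the term ran from 0.16 to 0.91. Vsir, the checkpoint molecule VISTA, separated the groups fully at 27.2 to 42.1 and 43.5 to 86.7 CPM, with 0.88 pooled and 0.75 with the term (adjusted p = 0.0853).

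**Figure D4:**
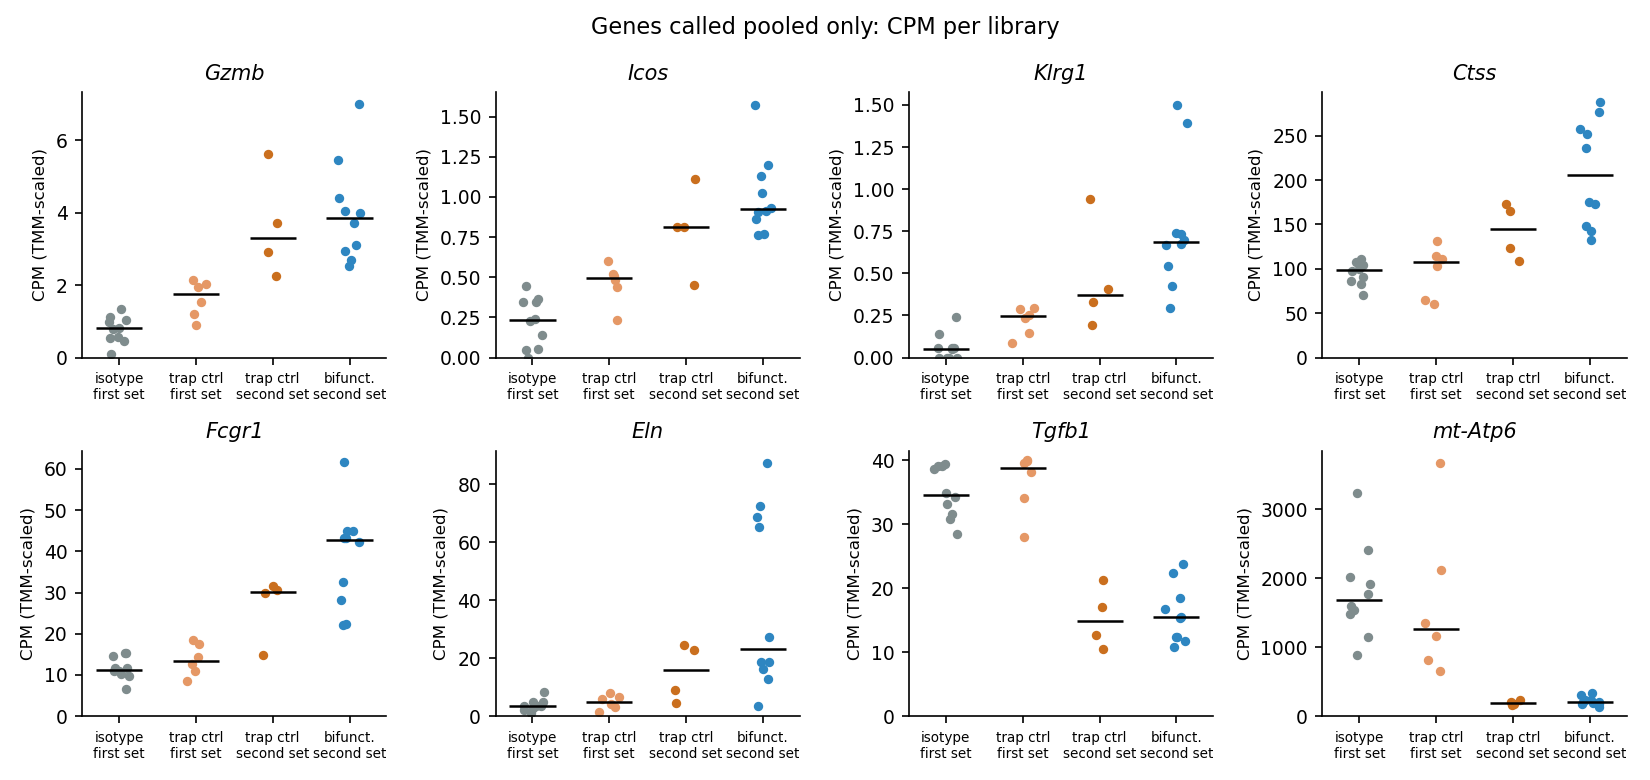
CPM per library (TMM-scaled, y axis from 0) of 8 genes called pooled but not with the library set term, in the isotype control (10 libraries), the trap control of the first set (6) and of the second (4), and the bifunctional protein (10); bars are medians. For Tgfb1 and mt-Atp6 the trap control libraries of each set sit with the other group of that set, and for Ctss and Fcgr1 the bifunctional protein lies highest.

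Interferon-stimulated genes rose pooled in most members. Of 25 type I interferon genes 15 rose and 1 fell, with a median of 0.53, and of 20 interferon γ genes 15 rose and 1 fell, with a median of 0.79. None passed with the set term (smallest edgeR adjusted p = 0.132 and 0.114). With it 24 of 25 and 20 of 20 members were above 0, against 8418 of all 14920 genes, with medians of 0.35 and 0.31. Within the second set the type I genes had a median of 0.03, and within the first 0.34. Type I interferon acts through the factor ISGF3, which binds a repeat of GAAA letters upstream of its target genes.

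Stretches of 3 promoters of the type I list are given to show that repeat, from RefSeq on GRCm38.p6 and read on each gene's strand. They belong to the members with the smallest pooled adjusted p that hold GAAA, any 2 bases and GAAA, or TTTC, any 2 bases and TTTC for the other strand, in the 250 bases before the gene's start. Capitals mark each match, and in Oas1a a pair of matches overlap.
Oas1a (chromosome 5, 120907526 to 120907580, minus strand): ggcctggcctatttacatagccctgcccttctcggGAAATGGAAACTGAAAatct
Ifit3 (chromosome 19, 34583338 to 34583417, plus strand): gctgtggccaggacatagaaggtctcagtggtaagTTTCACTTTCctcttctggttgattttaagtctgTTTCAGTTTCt
Ifit1 (chromosome 19, 34640750 to 34640829, plus strand): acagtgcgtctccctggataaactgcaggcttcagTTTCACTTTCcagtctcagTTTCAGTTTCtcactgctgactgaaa

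The letters stood in 8 of the 18 type I promoters matched by symbol (44.4%) and in 936 of 27018 promoters of all genes (3.46%). Oas1a, which makes the activator of RNase L, ran from 10.5 to 17 CPM in the isotype control (median 14.1) and from 20.3 to 39.6 CPM with the bifunctional protein (median 25.8). The groups did not overlap, and the trap control of the second set, at 19.8 to 39.1 CPM, covered the bifunctional range almost whole. Oas1a rose by 0.97 pooled (SE 0.15, edgeR adjusted p = 8.37e-06), and with the set term the difference was 0.29 (SE 0.225, adjusted p = 0.472). Ifit3 and Ifit1, proteins that bind foreign RNA, rose by 0.92 and 0.83 pooled, with 0.50 and 0.30 for the term.

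Irf8, an interferon-induced factor of myeloid cells and dendritic cells, ran from 16.2 to 23.5 CPM (median 20.0) and from 21.9 to 51.1 CPM (median 37.4), with 9 of 10 bifunctional libraries above the isotype range. It rose by 0.93 pooled, and the difference with the term was 0.70 (SE 0.247, adjusted p = 0.114). Of 10 T cell attracting chemokines 7 rose pooled, with medians of 0.60 pooled and 0.50 with the term. Cxcl11, a ligand of CXCR3, rose by 2.05 pooled and had a difference of 0.48 with the term (adjusted p = 0.628). Its pooled value on centred TPM was -0.14.

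Antigen presentation by MHC class II rose in all 9 tested members pooled, with a median of 1.86. No member passed with the set term (smallest edgeR adjusted p = 0.161), and all 9 were above 0, with a median of 1.01, the highest of any immune list. Within the sets the medians were 0.54 in the second and 0.50 in the first. The summed level of the list, though, had a median of 170.1 CPM in the isotype control and 161.9 CPM in the trap control of the first set. It ran from 115.7 to 189.7 CPM and from 102.3 to 471.8 CPM there, so the first-set value was not a rise of every trap control library. Without C0479 and C0484 the pooled count was 8 of 9 and the median with the term 0.73. Ctss, cathepsin S, which trims the invariant chain, ran from 70.3 to 111 CPM (median 98.8) and from 132 to 288 CPM (median 206), with no overlap. It rose by 1.13 pooled (adjusted p = 3.82e-06), and its difference with the term was 0.58 (95% interval 0.05 to 1.11, adjusted p = 0.211), of which 0.55 lay in the second set.

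MHC class I genes rose for 11 of 17 and fell for 2 pooled. Their median hardly differed between the fits, 0.33 and 0.31, and 16 of 17 were above 0 with the term. Psmb10, a catalytic subunit of the immunoproteasome, rose by 0.87 pooled and differed by 0.35 with the term (adjusted p = 0.365).

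Macrophage genes rose in 16 of 19 members pooled, with a median of 0.99, and 18 of 19 were above 0 with the term, with a median of 0.65 (smallest edgeR adjusted p = 0.0637). Their summed level ran from 979 to 1618 CPM in the isotype control and from 1877 to 4607 CPM with the bifunctional protein, with no overlap. The trap control of the second set, at 1662 to 2177 CPM, also lay wholly above the isotype control. The median within the second set was 0.53. Fcgr1, the high-affinity IgG receptor, ran from 6.6 to 15.2 CPM (median 11.3) and from 22.1 to 61.7 CPM (median 42.8). It rose by 1.72 pooled (SE 0.22, adjusted p = 6.89e-07), and with the term the difference was 0.76 (SE 0.322, adjusted p = 0.173). Cd68 rose by 0.99 pooled and Adgre1, the F4/80 antigen, by 1.02, with 0.35 and 0.52 for the term.

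Of 12 dendritic cell genes 6 rose and 2 fell pooled, where 34.2% of all genes rose and 28.5% fell. The list's medians were 0.58 pooled and 0.28 with the set term, where 10 of 12 members were above 0 and none was called. The marker Xcr1 ran from 0.9259 to 2.32 CPM in the isotype control and from 0.5084 to 1.463 CPM with the bifunctional protein. The marker Flt3 ran from 3.565 to 7.024 CPM and from 1.811 to 5.002 CPM. Both ranged lower, against the direction of the list's medians, but overlapped. The trap control of the second set lay at 0.3598 to 1.077 CPM for Xcr1 and 2.215 to 4.287 CPM for Flt3. Of 13 neutrophil genes none rose and 2 fell, with medians of 0.35 pooled and -0.18 with the term. Only 2 of 11 B and plasma cell genes were high enough to test, Ighm and Cd22, and the defining markers Cd79a and Igkc were not among them.

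The main ligand that the trap binds, Tgfb1, ran from 28.5 to 39.4 CPM in the isotype control (median 34.6) and from 10.7 to 23.7 CPM with the bifunctional protein (median 15.4), with no overlap. The trap control had 28.0 to 40.01 CPM in the first set and 10.4 to 21.2 CPM in the second. Tgfb1 fell by 1.13 pooled (SE 0.20, edgeR adjusted p = 3.26e-05). The difference with the set term was 0.13 (SE 0.232, adjusted p = 0.799, 95% interval -0.33 to 0.58), and both differences within sets were under 0.1.

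Tgfb2 had differences of -0.72 pooled and -0.13 with the term, and Tgfb3, which rose by 0.84 pooled, one of 0.66 (95% interval -0.01 to 1.33). Tgfbr2, the receptor the trap is modeled on, ran from 170 to 263 CPM and from 269 to 438 CPM, rose by 0.67 pooled (adjusted p = 5.85e-05), and differed by 0.06 with the term. Tgfbr1 differed by -0.02 pooled and -0.14 with the term. Itgav, the integrin chain that helps release TGF-β from its latent form, fell by 0.49 pooled and differed by -0.33 with the term (adjusted p = 0.146). On centred TPM its pooled value was 0.096. Over the 20 ligands, receptors and activators 5 rose and 6 fell pooled, where 34.2% of all genes rose and 28.5% fell. The medians were 0.06 pooled and 0.25 with the term.

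Of 24 genes that TGF-β is known to induce or repress, 8 rose and 9 fell pooled, where 34.2% of all genes rose and 28.5% fell. Their median was -0.18 pooled, and with the term 12 were above 0, with a median of 0.04. The list mixes induced and repressed genes, so nothing on the pathway's activity is read from these values. Pmepa1, a Smad target that feeds back on the pathway, ran from 96.0 to 182 CPM (median 118) and from 32.1 to 86.4 CPM (median 73.9), with no overlap. It fell by 0.88 pooled (adjusted p = 0.000168), and the difference with the term was 0.10 (95% interval -0.38 to 0.57).

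Of 37 collagens and matrix genes 20 rose and 2 fell pooled, with a median of 0.63. No matrix gene passed with the set term (smallest edgeR adjusted p = 0.139), and the median was 0.30, with 0.37 in the second set and -0.13 in the first. Eln, elastin, ran from 0.993 to 8.26 CPM (median 3.5) and from 3.30 to 87.3 CPM (median 23). Of the 10 bifunctional libraries 9 lay above the isotype range. It rose by 3.36 pooled, and the difference with the term was 1.71 (SE 0.790, adjusted p = 0.211). Fibroblast genes rose for 11 of 16 pooled with a median of 0.99, and the median was 0.13 with the term. Without C0479 and C0484 the pooled counts were 17 of 37 and 8 of 16, and the medians with the term 0.08 and -0.13. Over all genes 4478 of 15006 rose pooled without them, and the median with the term was 0.02.

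Contractile and smooth muscle genes rose for 12 of 14 pooled and for 7 of 14 without those libraries. Adipocyte genes stand beside all of these: their 11 members summed to 20.7 to 53.8 CPM in the isotype control and 30.4 to 1893 CPM with the bifunctional protein, and to 37.9 to 666 CPM in the trap control of the second set. All 11 rose pooled, with a median of 4.10, and the median with the term was 0.20. With host tissue scores as covariates 12 of 37 matrix, 5 of 16 fibroblast and 5 of 14 contractile genes rose pooled. Over all genes 3354 of 14920 rose in that fit, against 5107 in the main one.

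Of 14 endothelial genes 6 rose pooled, where 34.2% of all genes did, with a median of 0.39. With the set term all 14 were above 0 with a median of 0.72 (0.57 in the first set alone, 0.17 in the second, smallest edgeR adjusted p = 0.0604). Pecam1, the adhesion molecule CD31, ran from 20.5 to 59.3 CPM (median 30.8) and from 42.6 to 138 CPM (median 49.9). The groups overlapped, and it rose by 0.99 pooled, with a difference of 0.88 for the term (95% interval 0.14 to 1.61, adjusted p = 0.175). Without C0479 and C0484 the pooled count was 3 of 14 and the median with the term 0.44, where 4478 of all 15006 genes rose pooled. With host tissue covariates 2 rose and 1 fell pooled, where 3354 of all 14920 genes rose and 3251 fell.

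**Figure D5:**
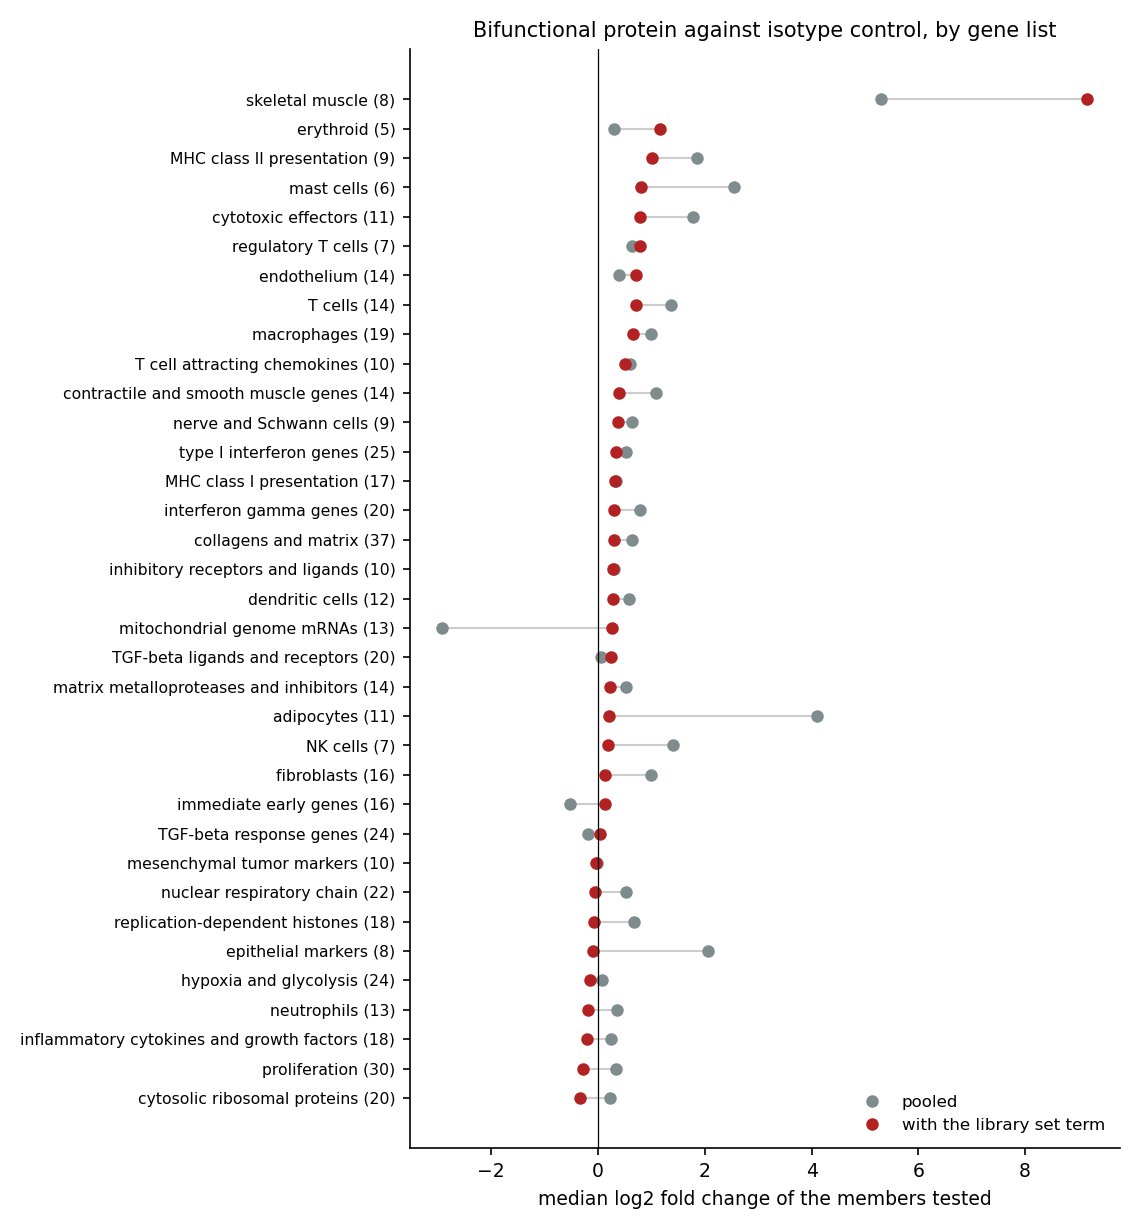
Median log2 fold change (x axis) of the tested members of each gene list (y axis, with the number tested; lists with under 5 tested members and the structural RNAs are not drawn), bifunctional protein against isotype control, pooled (grey) and with the library set term (red). Immune lists lie to the right of 0 in most cases in both fits, proliferation and ribosomal proteins cross from right to left, and mitochondrial mRNAs move from -2.91 to 0.27.

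Growth-related lists changed sign between the fits. Of 30 proliferation genes 18 rose and 5 fell pooled, with a median of 0.34. With the set term 1 of 30 was above 0, the median was -0.27 and none was called (smallest edgeR adjusted p = 0.0553), and the second set alone gave -0.26. Tyms, the enzyme that makes thymidylate, ran from 62.4 to 80.4 CPM (median 68.8) and from 39.3 to 51.5 CPM (median 43.7). The groups did not overlap. It fell by 0.67 pooled, and the difference with the term was -0.21 (SE 0.092, adjusted p = 0.195). Its pooled value was 0.54 on centred TPM.

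Of 20 cytosolic ribosomal proteins 9 rose and 3 fell pooled, where 34.2% of all genes rose and 28.5% fell. The medians were 0.23 pooled and -0.33 with the term, where 1 of 20 was above 0 and Rpl5 alone was called. Replication-dependent histones rose for 15 of 18 pooled, with a median of 0.67, and the median with the term was -0.08. Their messages lack a poly(A) tail, and the label states ribosomal depletion with random priming, which keeps such RNA. Hist1h2bc rose by 0.81 pooled and differed by 0.14 with the term (adjusted p = 0.595).

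Nuclear genes of the respiratory chain rose for 18 of 22 pooled, with a median of 0.53, and their median with the term was -0.06. The 13 messages of the mitochondrial genome all fell pooled, with a median of -2.91, on every scale tried. mt-Atp6, a subunit of the ATP synthase, ran from 888 to 3243 CPM in the isotype control (median 1687) and from 127 to 335 CPM with the bifunctional protein (median 202). The trap control had a median of 1260.2 CPM in the first set and 190 CPM in the second. mt-Atp6 fell by 3.04 pooled, and the difference with the term was 0.05 (SE 0.428, edgeR adjusted p = 0.963).

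Immediate early genes fell for 6 of 16 pooled, where 28.5% of all genes fell, and their medians were -0.52 pooled and 0.12 with the term. Myc, a growth-promoting transcription factor, fell by 1.44 pooled and differed by -0.10 with the term (95% interval -0.50 to 0.30). Of 24 hypoxia and glycolysis genes 5 rose and 8 fell pooled, where 34.2% of all genes rose and 28.5% fell. Their medians were 0.07 pooled and -0.14 with the term. Kdm3a, a hypoxia-induced histone demethylase, fell by 0.86 pooled and differed by 0.21 with the term.

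The labelled carcinoma was checked against its markers. Krt8, a keratin of simple epithelium, was at 186 to 348 CPM in the isotype control and 168 to 368 CPM with the bifunctional protein. Vim, a mesenchymal intermediate filament protein, was at 1992 to 3102 CPM and 2032 to 3900 CPM. Epcam was low, at 0.442 to 3.83 CPM and 1.12 to 25.1 CPM, and rose by 2.47 pooled with a difference of 1.03 for the term (adjusted p = 0.51). Neither Krt8 nor Vim passed in either fit. In the pooled fit 6 of 8 epithelial markers rose, with a median of 2.06. Of 10 mesenchymal tumor markers 1 rose and 4 fell, with a median of -0.01, where 34.2% of all genes rose and 28.5% fell. With the term the medians were -0.09 and -0.03 and none was called. Among the bifunctional libraries Epcam was highest in C0479 and C0484, at 25.1 and 23.75 CPM, and so was Cdh1, at 56.75 and 22.32 CPM. Those libraries also stood apart in skeletal muscle and adipocyte genes. Whether the pooled rise of the epithelial markers lies in the carcinoma was not tested.

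Host tissue markers had their highest values in few libraries. Krt14, a keratin of basal skin cells, was at 424 CPM in C0479 and at 0.967 to 7.90 CPM in the other 9 bifunctional libraries, against 0.390 to 1.48 CPM in the isotype control. Mylpf, a myosin light chain of fast muscle, had medians of 0.182 and 0.550 CPM, with 1 bifunctional library at 99.6 CPM and 1 trap control library at 189 CPM. Its log2 difference was 5.50 pooled and 9.18 with the set term (SE 2.724, adjusted p = 0.0676). Without trap control C0463 the value with the term was 1.37 (adjusted p = 0.826), and without those bifunctional libraries (C0479 and C0484) no skeletal muscle gene was called. Mast cell genes rose for 5 of 6 pooled, with a median of 2.56, which was 0.81 with the term. The chymase Cma1 rose by 3.93 pooled and differed by 1.70 with the term (adjusted p = 0.434).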

How the data were processed

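Bulk RNA sequencing of 30 tumors was used, 10 per group; 10 anti-PD-L1 libraries entered only an alternative fit. Per the labels' protocols, total RNA of snap-frozen tumors was depleted of ribosomal RNA and primed at random. Bowtie2 2.3.1, RSEM 1.2.31 and the mm10 build are given per the submitters' processing notes; the annotation, strand setting and trimming are not given in the sources used here. The authors deposited expected counts, in which RSEM shares reads among genes they match, and TPM, for 39012 genes. Of the expected counts 14.0% were not whole, and they were rounded. Of the gene IDs 37688 (96.6%) matched GENCODE M21.

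Genes passing edgeR's filter on low counts by group (14920) were fitted by edgeR 4.0.16 in R 4.3.3 (TMM scaling, quasi-likelihood F test, two-sided, Benjamini-Hochberg threshold 0.05), with a mean per group and then with the library set added. Fold changes are log2 with SE; intervals are 1.96 SE to each side. Total expected counts were 13495835 to 27658263 per library. The p-values measure the spread between tumors of a group. In the pooled fit the trap control spans both sets, so that spread includes the shift between sets. With the set term the precision also rests on the 6 and 4 trap control libraries. No pair of libraries in a group was a duplicate (smallest chi-square per degree of freedom 9.60).

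The members and the 38 gene lists were chosen with earlier results of these data known; lists get counts and medians only. Of the list entries 604 matched and 3 did not. Genes named were, among those that held with a mean of at least 1 CPM in either group and no predicted genes, small RNAs or pseudogenes, the 10 largest rises and 10 largest falls with the set term; from each list up to 3 members that held, otherwise the one with the smallest pooled adjusted p; up to 3 genes of opposite calls; the drug targets; and fixed cell type markers. Other names (Numa1, other genes that held, the promoter examples) were added after their values were seen; some genes are not reported here.

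Alternatives were DESeq2 1.42.0 and its size factors, other filters, all 40 libraries, structural RNAs left out or as covariate, host tissue covariates, libraries left out, and limma 3.58.1 on TPM with 1 or 0.1 added. Centred TPM and protein-coding genes only were added after seeing the data. The fits were tested on simulated data. These were drawn with the same shift between sets in every treatment, so they say nothing on whether set and treatment are additive. Python 3.11.15, pandas 2.3.3, numpy 2.4.6 and matplotlib 3.10.9 made summaries and plots.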

Additional observations from a re-analysis of the deposited data

Results flagged for a closer look

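In 9 of 126 checks, 1 library stood apart from the other 9 of its group by the gap between neighboring values on log2(CPM + 1), set against Dixon's 95% critical value; chance flags about 1 in 20. Bifunctional C0479 was apart in 4 genes: Krt14 at 424 CPM (others 0.967 to 7.90), Bmp2 at 5.38 CPM (others 1.06 to 2.69), Tnfrsf18 at 3.64 CPM (others 0.508 to 1.54) and Hist1h2bc at 66.6 CPM (others 80.8 to 99.4). Without it the pooled log2 difference of Krt14 was 2.29 and that with the set term -0.22, Bmp2 kept an edgeR adjusted p of 0.0441 with the term at 2.08, and Tnfrsf18 stood at 1.18 pooled.

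Pmepa1 was at 32.1 CPM in bifunctional C0483 (others 51.7 to 86.4), and Myc at 13.2 CPM in bifunctional C0486 (others 22.6 to 31.8). In the isotype control, Ddrgk1 was at 14.7 CPM in C0456 (others 9.04 to 11.6), Pecam1 at 59.3 CPM in C0455 (others 20.5 to 35.2) and Cd8a at 1.32 CPM in C0450 (others 0.0547 to 0.568). Without C0450 Cd8a rose by 1.15 pooled (edgeR adjusted p = 0.0176), and its difference with the set term was 1.06 (adjusted p = 0.422). Over the alternatives other than leaving out 1 library, its pooled value ran from -0.79 to 0.83. Without C0456 Ddrgk1 had an adjusted p of 0.0088 with the term.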

How the results depend on the processing

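The pooled count stayed within 1.5 times of 9355 under the 30 fits that left out 1 library (9097 to 9679) and the other alternatives (6605 with host tissue covariates to 13436 on log2(TPM + 1)). The count with the set term (109) and the count in both fits (55) did not. They were 229 and 119 with DESeq2 size factors, 280 and 139 with a mean of at least 1 CPM, 783 and 358 with the DESeq2 Wald test, 387 and 209 with all 40 libraries, 276 and 146 with protein-coding genes only, 38 and 22 without C0479 and C0484, 2 and 1 on centred TPM, and 612 with structural RNA share in place of the set. They were 0 and 0 with no filter (edgeR, 3811 genes at an unadjusted p under 0.05), 0 and 0 on log2(TPM + 1) in limma (1288 such genes) and 0 and 0 on log2(TPM + 0.1) (1006). Leaving out 1 library gave 0 to 711 and 0 to 310. Of the 55 genes, 55 still held with DESeq2 size factors, 49 with the Wald test, 54 with structural RNAs left out and 22 without C0479 and C0484. The cause of these moves was not tested.

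TPM as deposited turned pooled falls into positive values, with the median of all genes at 0.81 (1 added) and 1.31 (0.1 added). With 1 added the pooled log2 differences were Tgfb1 0.038, Cic 0.81, Trnt1 0.97, Fkbp3 1.07, Uchl3 0.82, Myc 0.025, Rps14 1.13, Tyms 1.45, Brd3 0.73, Itgav 1.01, Cenpi 0.57, Gnpnat1 0.74, Pmepa1 0.74, Tgfb2 0.38, Prkd2 0.50, Kdm3a 0.46, Rpl5 0.69, Zfp930 0.17, Tomm20 1.04, Zfp97 0.17 and Zfp960 0.070. With 0.1 added they were Tgfb1 0.038, Cic 0.96, Trnt1 1.11, Fkbp3 1.14, Uchl3 0.92, Myc 0.020, Rps14 1.14, Tyms 1.63, Brd3 0.95, Itgav 1.08, Cenpi 0.85, Gnpnat1 1.05, Pmepa1 0.82, Tgfb2 0.64, Prkd2 0.85, Kdm3a 0.60, Rpl5 0.80, Zfp930 0.26, Tomm20 1.15, Zfp97 0.24 and Zfp960 0.10. On centred log2(TPM + 1) the pooled values that turned were Pparg -0.18, Tfcp2 -0.15, Trnt1 0.059, Myh11 -0.10, Fkbp3 0.16, Ctnnd2 -0.77, Rps14 0.22, Tyms 0.54, Icos -0.70, Pdcd1 -0.73, Itgav 0.096, Bmp2 -0.62, Klrg1 -0.55, Pik3ip1 -0.0023, Tnfrsf18 -0.36, Cxcl11 -0.14 and Tomm20 0.13, and with the set term Ctnnd2 turned to -0.091. No other setting reversed a named gene that was called. No paired analysis was possible because the groups share no replicate numbers. Depth limits genes under 1 CPM most, and no additivity of set and treatment could be tested.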
